A study of Homo sapiens with 4 samples.

Results

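UCHL1 and 9 genes of the neuronal cytoskeleton and neuronal RNA binding (NEFL, NEFM, INA, NES, TUBB3, MAP2, STMN2, ELAVL2 and ELAVL4) were read on 4 expression arrays. Every probe set that the annotation of the PrimeView array pairs with exactly 1 of these symbols was taken, which gave 25 of the 49293 probe sets on the array and 10 of the 18132 genes with a single-symbol probe set. The genes were chosen with the difference between the groups known, UCHL1 having the highest rise of all, so the values of the 10 genes are descriptions, with no p-value. Where the text or a figure says that 1 of them was past a threshold, this only sorts the genes and is not evidence.

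All 4 arrays were made from RNA labelled as Hs578T, a triple-negative breast cancer line with mesenchymal features, grown in serum with antibiotics and insulin. On 2 arrays, numbered 1 and 5 in the labels, the cells carried a lentiviral shRNA against ELK3, an ETS family transcription factor; the other 2, numbered 1 and 2, are labelled as the sh control. Knockdown cells were stable lines, and what the numbers 1 and 5 mean is not in the labels (constructs, clones and cultures are all possible), so the spread within a group may be technical. The series asks how ELK3 relates to the chemokine CXCL16 and to natural killer cells; the neuronal genes are outside that question.

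UCHL1 is a ubiquitin C-terminal hydrolase that is among the most abundant proteins of neurons, where it serves as a marker under the name PGP9.5. Neurofilaments are intermediate filaments built from light, medium and heavy chains with alpha-internexin, and they set the calibre of axons; nestin is the intermediate filament protein of neural progenitors and of many other growing cells. TUBB3, MAP2 and STMN2 act on microtubules in neurons, and ELAVL2 and ELAVL4 are Hu proteins that bind AU-rich stretches of mRNA. Several of these genes are also active in non-neuronal tumour lines.

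The knockdown and control arrays formed pairs that stood far apart, and this bears on every value that follows. Over all probe sets, Pearson's correlation was 0.996 between the knockdown arrays and 0.998 between the control arrays, against 0.902 to 0.904 across the groups (each over the 49293 probe sets of the array, not over independent samples). ELK3 itself was at 8.09 and 7.92 in the knockdown arrays and at 10.05 and 10.07 in the controls. All 16 markers of a mesenchymal breast line fell, with a median difference of -4.63, and their mean level was 7.84 and 7.72 in the knockdown arrays against 12.27 and 12.20 in the controls. Of all genes, 50.8% were past an adjusted p of 0.05 by limma, 21.3% of them all being lower. This list was chosen with earlier results of these data known, so nothing is read from its count. Collagen gene COL1A2 (-8.37, SE 0.20, limma adjusted p = 2.37e-07), AXL (-7.26), CDH11 (-7.18) and THY1 (-6.95) led them, and on the mean of their probe sets COL1A2 was at -7.54, AXL at -5.16 and CDH11 at -3.25. Thus the markers of the labelled cell were high on the control arrays, and 9 of the 16 remained above the median of all values (6.78) on the knockdown arrays. XIST, the long RNA that coats the inactive X chromosome, was at 14.12 and 14.14 in the knockdown arrays and at 6.25 and 5.62 in the controls, 294-fold higher. It is named because its pattern over these 4 arrays was the nearest to that of UCHL1. A large difference was thus close to fixed by that choice, and its level is given as a description of arrays labelled as 1 cell line. Whether the knockdown arrays hold RNA of the labelled line was not tested, so each difference given here is between arrays as labelled, and the part of this shift in the neuronal genes was not tested.

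The sequence just before the start of a gene is shown for 4 genes that differed between the groups in opposite directions, UCHL1 and NES being higher and TUBB3 and ELAVL2 lower in the knockdown arrays. RefSeq's promoter table for GRCh38.p14 matched 7 of the 10 genes with 21 windows. NEFL, NEFM and STMN2 were not among them. UCHL1, NES and INA had 1 window each, TUBB3 had 2, MAP2 3, ELAVL2 6 and ELAVL4 7. A first window therefore need not stand for the other starts of its gene. The 250 bases before the first listed start are given 5′ to 3′ for UCHL1 (chr4:41256678-41256927 on the plus strand), NES (chr1:156677408-156677657 on the minus strand), TUBB3 (chr16:89921675-89921924 on the plus strand) and ELAVL2 (chr9:23826241-23826490 on the minus strand). Capitals mark GGAAG, the short core that ETS factors bind, and the E-box CAGCTG, on either strand.
UCHL1: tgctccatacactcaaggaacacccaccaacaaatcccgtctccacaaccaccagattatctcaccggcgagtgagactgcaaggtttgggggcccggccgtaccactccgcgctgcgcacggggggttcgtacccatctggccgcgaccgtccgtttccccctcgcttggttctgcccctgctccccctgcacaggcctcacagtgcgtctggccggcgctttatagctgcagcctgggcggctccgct
NES: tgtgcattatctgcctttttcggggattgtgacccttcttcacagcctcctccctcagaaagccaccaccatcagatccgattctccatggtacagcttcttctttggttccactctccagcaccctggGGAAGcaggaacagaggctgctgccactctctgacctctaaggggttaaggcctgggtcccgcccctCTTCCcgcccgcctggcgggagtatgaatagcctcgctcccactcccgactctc
TUBB3: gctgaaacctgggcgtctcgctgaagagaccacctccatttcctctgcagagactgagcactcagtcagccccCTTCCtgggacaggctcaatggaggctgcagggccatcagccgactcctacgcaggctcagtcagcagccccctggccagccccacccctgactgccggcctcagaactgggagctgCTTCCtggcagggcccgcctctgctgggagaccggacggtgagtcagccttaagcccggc
ELAVL2: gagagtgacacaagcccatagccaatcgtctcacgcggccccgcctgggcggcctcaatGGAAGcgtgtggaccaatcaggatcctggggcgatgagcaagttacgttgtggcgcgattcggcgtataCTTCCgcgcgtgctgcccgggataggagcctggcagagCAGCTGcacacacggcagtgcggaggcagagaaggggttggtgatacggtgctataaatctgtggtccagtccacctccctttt

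The UCHL1 window held none of the 6 motifs searched. GGAA alone was not among them, and that window does contain it. GGAAG was present on either strand in the first window of NES, TUBB3 and ELAVL2, at 2 places each. It occurs in 65.1% of the 35116 promoter windows of the same length, and 12 of the 21 windows of these genes held it. The longer ETS sequence CCGGAAGT, which contains GGAAG, was in 0 of the 21 windows and in 3.42% of all. The left and right parts of the element bound by the neuronal repressor REST, TCAGCACC and GGACAGCG, were each in 0 of the 21 windows, against 1.32% and 1.26% of all. The E-box CAGCTG lay in 4 of the 21 windows (14% of all), of INA, ELAVL2 and ELAVL4, and CACGTG in 0 (6.34% of all). These are letter matches only, and a window without a match says nothing of the factor.

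The 10 genes did not move together. Reading each gene from its brightest probe set, 3 (UCHL1, NEFL and NES) were past an adjusted p of 0.05 by limma and higher in the knockdown arrays, 2 (TUBB3 and ELAVL2) were past it and lower, and 5 (NEFM, INA, ELAVL4, MAP2 and STMN2) were not past it. Of all genes tested, 50.8% were past the same threshold, 29.5% higher and 21.3% lower, and since the choice of the genes used this contrast, nothing is read from the count. Their median difference was -0.01, as was that of all genes (-0.01). The groups did not overlap for 6 of the 10, and for 75.3% of all genes. Over all 25 probe sets of the 10 genes, 11 were past the threshold and higher (27.0% of all probe sets on the array were) and 2 past it and lower (22.1%; 49.2% in either direction). The groups were apart at 16 of the 25, and at 74.5% of all probe sets, and nothing is read from these counts. In the plot of signal by array, the distance between the groups is large for 5 genes, and the widest gaps within a group are those of UCHL1 in the controls (0.78) and INA in the knockdown arrays (0.50).

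**Figure D1:**
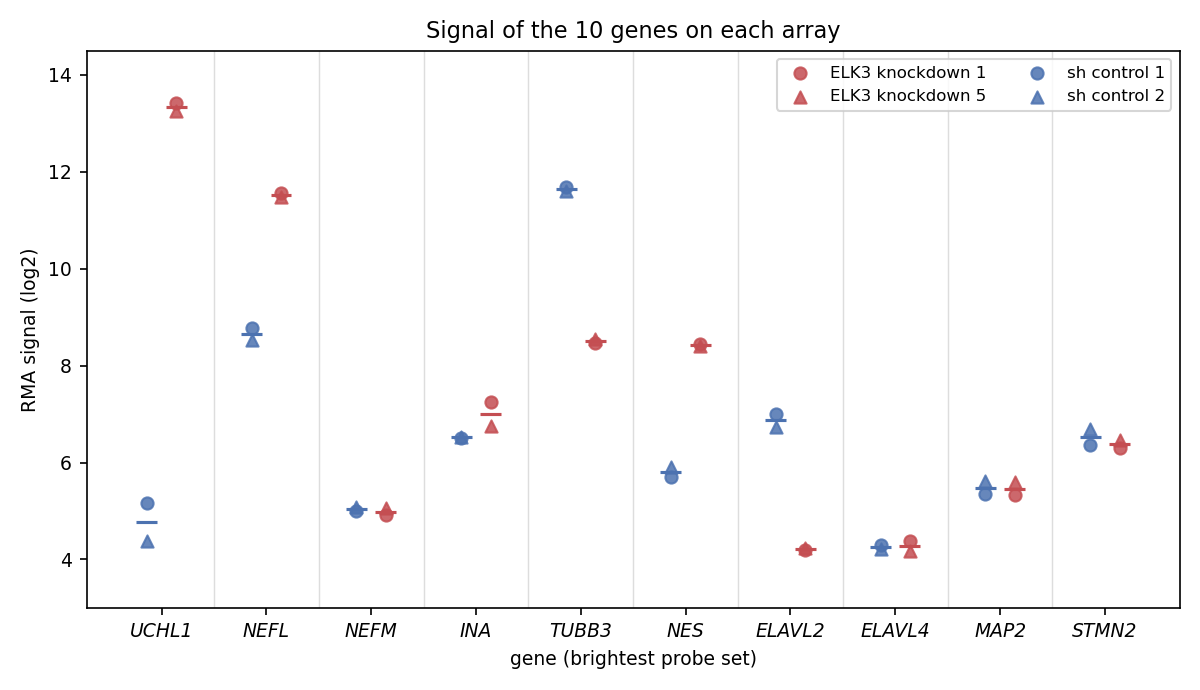
RMA signal (log2) of each gene's brightest probe set on the 2 ELK3 knockdown arrays (red) and the 2 sh control arrays (blue); short lines are group means. UCHL1, NEFL and NES sit higher and TUBB3 and ELAVL2 lower in the knockdown arrays, while the points of NEFM, ELAVL4, MAP2 and STMN2 overlap. Heights of different genes come from different probes and cannot be compared.

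UCHL1 had a signal of 13.42 and 13.25 in knockdown arrays 1 and 5, and of 5.16 and 4.38 in control arrays 1 and 2. The mean went from 4.77 ± 0.55 (SD, n = 2) to 13.33 ± 0.12 (SD, n = 2), a difference of 8.56 on the log2 scale or 378-fold. No gene had a larger rise, and 3 genes had a difference of larger size, all of them falls. On the control arrays only 20.7% of all probe sets were dimmer, and on the knockdown arrays 99.5% were. RMA values carry no call of signal above background, so the size of this fold rests partly on the dim end of the array.

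All 4 UCHL1 probe sets were higher in the knockdown arrays, but not by the same amount. A second one gave 13.01 and 12.91 against 4.23 and 4.02, or 457-fold. The other two gave 12.03 and 12.06 against 5.03 and 5.02 (130-fold), and on average 12.05 against 5.02 (131-fold). These last 2 gave the same value on knockdown array 1 and on control array 1, and they were not taken as separate evidence. On the mean of the 4 the difference was 7.87. The control arrays differed by 0.78 at the brightest UCHL1 probe set, a gap that only 0.108% of all probe sets exceeded, and by 0.22, 0.0092 and 0.028 at the other three. Every UCHL1 probe set has a name ending in s, which on this kind of array marks probes that match more than 1 transcript.

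The genes whose pattern over the 4 arrays was nearest to that of UCHL1 were also among those with the largest rises. Likeness was the Euclidean distance between the log2 values of the 4 arrays after each gene's mean was subtracted. XIST was the nearest, at a distance of 0.40. SHISA2, a membrane protein that dampens WNT and FGF receptors, came next at a distance of 1.24, GAL, the precursor of the neuropeptide galanin, at 1.74, and ID4, which keeps basic helix-loop-helix proteins off DNA, at 1.82. PM20D2 followed at 2.06 and LIN28B, an oncofetal RNA-binding protein that holds back let-7, at 2.29. With 2 pairs of arrays this measure mostly orders genes by the size of their difference.

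The intermediate filament genes split. NEFL, the light neurofilament chain on which the others assemble, was at 11.56 and 11.48 in the knockdown arrays and at 8.78 and 8.54 in the controls. Its mean was 8.66 ± 0.17 (SD, n = 2) in the controls and 11.52 ± 0.054 (SD, n = 2) in the knockdown arrays, 7.27-fold higher. The other NEFL probe sets read 11.10 against 8.14 on average, and 10.89 and 10.92 against 8.29 and 8.23. NEFL was apart at all 3 of its probe sets, whose folds lay between 6.28 and 7.78, and 68.0% to 74.5% of all probe sets were dimmer than these on the control arrays. NEFL was thus not at the dim end in the controls, unlike UCHL1.

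NEFM, the medium chain, was at 4.91 and 5.06 in the knockdown arrays and at 4.99 and 5.08 in the controls. The groups overlapped, with a difference of -0.04. Its other probe set stood at 4.35 and 4.34 against 4.13 and 4.28, a difference of 0.14 with the groups just apart. Both NEFM probe sets were dim, with 25.1% and 11.2% of all probe sets below them on the control arrays. The light and medium chain genes thus gave different pictures on these arrays.

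INA, which encodes alpha-internexin, was at 7.25 and 6.75 in the knockdown arrays and at 6.52 and 6.53 in the controls. The groups did not overlap, but the knockdown arrays lay 0.50 from each other, more than the difference between the group means. A larger gap between the knockdown arrays was found at 2.67% of all probe sets. The difference of 0.48 did not pass; it was past the threshold without knockdown replicate 5 (0.73) or with dim genes left out of the fit, while without knockdown replicate 1 it was 0.23. The other INA probe set was dim and overlapped between the groups (4.35 and 4.05 against 4.24 and 4.01).

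NES, which encodes nestin, was at 8.44 and 8.41 in the knockdown arrays and at 5.70 and 5.90 in the controls. This is a difference of 2.63, or 6.18-fold, with SDs of 0.14 in the controls and 0.022 in the knockdown arrays (n = 2 each). A second NES probe set gave 6.35 and 7.04 against 4.72 and 5.46, or 3.04-fold. There the arrays of each group were unusually far apart: the knockdown gap of 0.69 was exceeded by 0.761% of all probe sets and the control gap of 0.74 by 0.148%. The groups were apart at both.

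**Figure D2:**
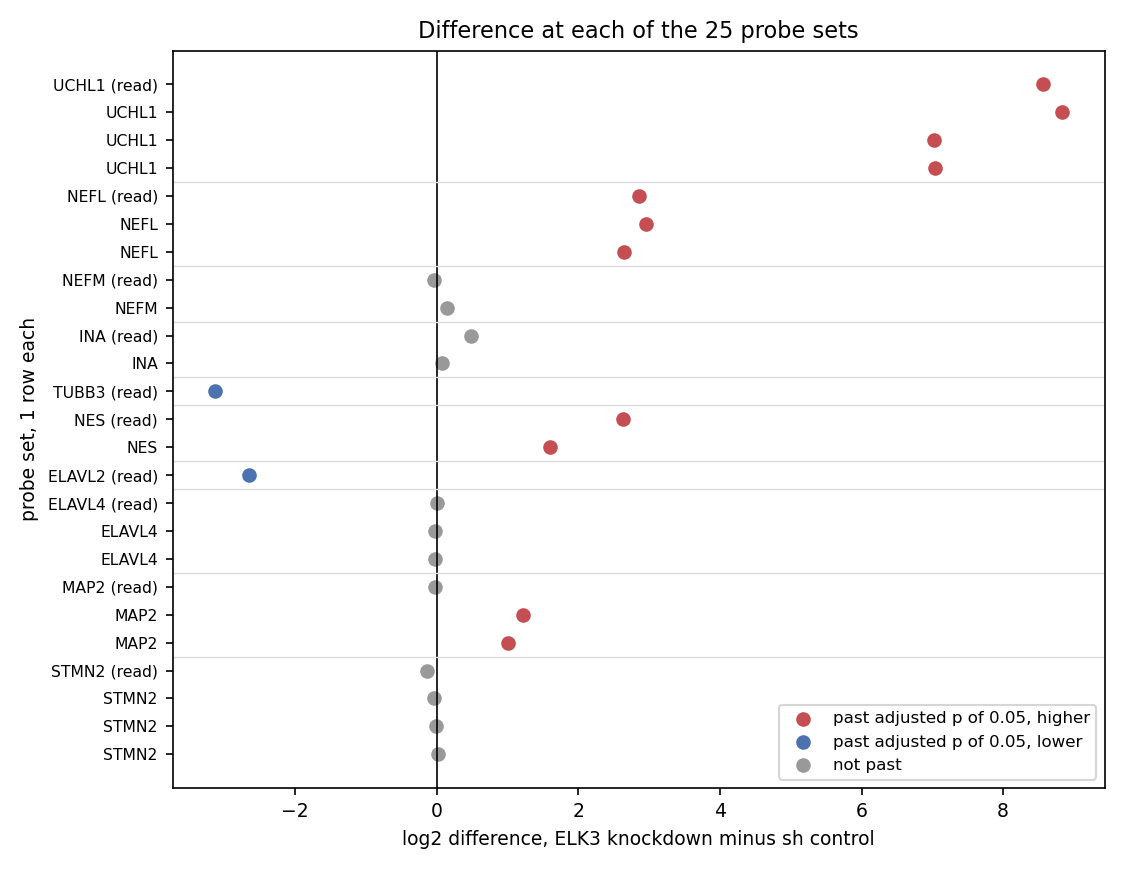
Log2 difference (ELK3 knockdown minus sh control, means of 2 arrays each) at each of the 25 probe sets, grouped by gene; red and blue points were past an adjusted p of 0.05 in the fit over all probe sets, grey ones were not, and "read" marks the brightest probe set. The 4 UCHL1 points lie between 7.02 and 8.84, the 3 NEFL points between 2.65 and 2.96, and the MAP2 points disagree, from -0.02 to 1.22.

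Among the microtubule genes, TUBB3, the beta tubulin isotype used as a marker of neurons, was lower. Its signal was 8.47 and 8.55 in the knockdown arrays and 11.68 and 11.61 in the controls. The mean went from 11.64 ± 0.048 (SD, n = 2) to 8.51 ± 0.054 (SD, n = 2), 8.77-fold lower, and 261 genes (1.44%) had a larger fall. TUBB3 was read by a single probe set whose name ends in x, which marks probes that can cross-hybridise, here possibly with other beta tubulins. Of those, TUBB6 went in the same direction (12.14 and 11.99 against 12.89 and 12.91) and TUBB4B in the opposite one (13.77 and 13.77 against 12.94 and 13.01); their part in the TUBB3 signal was not tested.

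MAP2, a protein that stabilises dendritic microtubules, depended on the probe set. The brightest one read 5.32 and 5.60 in the knockdown arrays and 5.34 and 5.62 in the controls, a difference of -0.02 with full overlap. The other two were higher in the knockdown arrays: 5.91 and 6.23 against 4.55 and 5.15 (2.33-fold), and 5.56 and 6.04 against 4.66 and 4.93 (2.01-fold). On the mean of the 3 the difference was 0.74 and MAP2 was past the threshold. Which transcripts each of these probe sets reads was not examined.

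STMN2, a stathmin that destabilises microtubules in growing neurites, was at 6.29 and 6.47 in the knockdown arrays and at 6.35 and 6.68 in the controls. The groups overlapped, with a difference of -0.14. Its 3 other probe sets lay between 3.48 and 4.07 on every array, among the dimmest of the table, with differences from -0.03 to 0.02.

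The Hu protein genes also differed from each other. ELAVL2 was at 4.19 and 4.24 in the knockdown arrays and at 6.999 and 6.74 in the controls. The mean went from 6.87 ± 0.18 (SD, n = 2) to 4.22 ± 0.032 (SD, n = 2), 6.30-fold lower. In the controls 51.4% of all probe sets were dimmer, and in the knockdown arrays 12.0% were, so the signal went from the middle of the array to its dim end. ELAVL4 stood at 4.38 and 4.17 against 4.30 and 4.22, with overlap, and its 3 probe sets gave differences between -0.03 and 0.01. All 3 were dim on every array.

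The plot of the 10 genes among all genes sets these sizes against the array as a whole. UCHL1 stood beyond all other rises, NEFL had 280 genes (1.54%) and NES 342 genes (1.89%) with a larger rise, and ELAVL2 had 362 genes (2.00%) with a larger fall. Between the lower and upper quartiles, all genes lay between -0.23 and 0.40, and NEFM, ELAVL4, MAP2 and STMN2 lay within it. INA, at 0.48, was just outside.

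**Figure D3:**
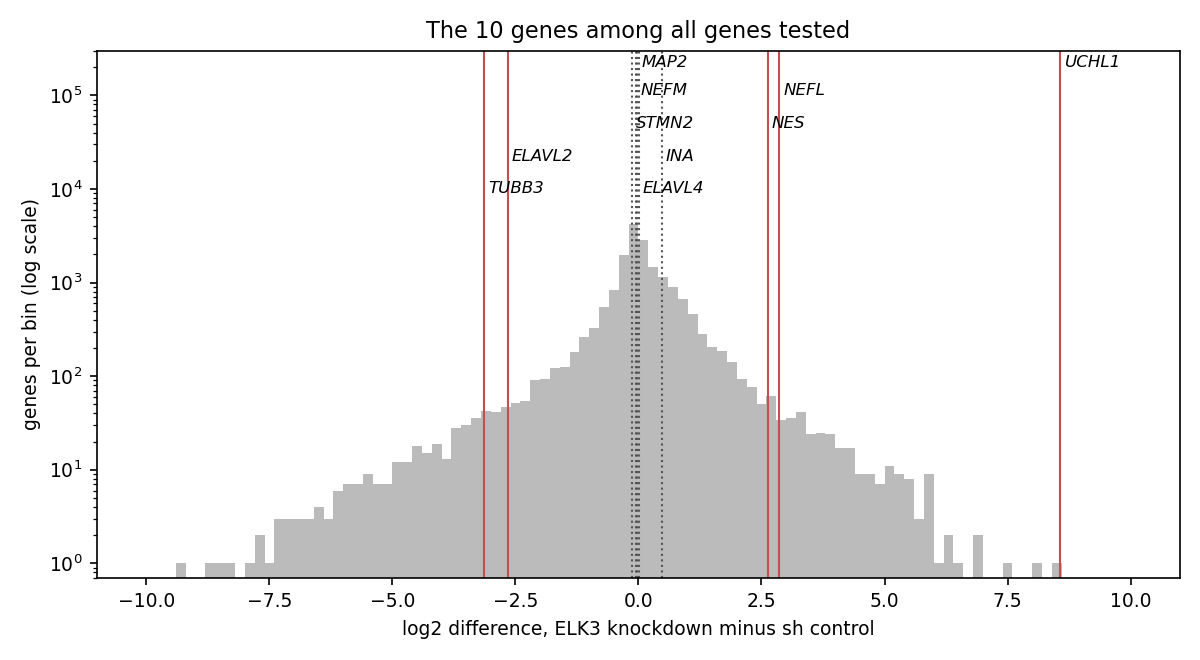
Histogram of the log2 difference (ELK3 knockdown minus sh control) of all 18132 genes, with the number of genes per bin on a log axis; solid red lines mark the genes past an adjusted p of 0.05 and dotted lines the others. UCHL1 at 8.56 is at the far right, NEFL (2.86) and NES (2.63) are in the upper tail, and TUBB3 (-3.13) and ELAVL2 (-2.66) in the lower one.

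Other genes of the same roles were read from lists, and their members went in both directions. Over the 7 lists of neuronal and ubiquitin genes, 90 genes were measured, of which 30 rose, 20 fell and 40 did not pass (55.6% past the threshold, against 50.8% of all genes). Their median difference was -0.01. The share past the threshold was thus near that of all genes. These lists were chosen with earlier results known, and nothing is read from the count of any of them.

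Of 9 ubiquitin hydrolases and ubiquitin genes measured, 6 rose and 1 fell, with a median difference of 0.28. This is 77.8% past the threshold, against 50.8% of all genes. Closest in kind to UCHL1, UCHL3 rose by 0.27 (SE 0.08, limma adjusted p = 0.0295) and UCHL5, a hydrolase bound to the proteasome, by 0.28 (SE 0.09, adjusted p = 0.0437). The call was lost in 8 of the 15 alternatives for UCHL3 and in 10 for UCHL5, those without control replicate 1 or 2 among them. For UCHL5 they included no intensity trend, no moderation, quantile normalization and array median subtraction. Its difference was 0.16 without knockdown replicate 1. The largest rise was that of USP14, another proteasome-bound hydrolase (0.92, SE 0.07, adjusted p = 3.46e-05), and OTUB1 and ATXN3 rose by 0.35 and 0.30. PSMD14, a deubiquitinase of the proteasome lid, fell by 0.24. OTUB1 did not pass without control replicate 1 (0.33), PSMD14 without control replicate 2 (-0.20), and ATXN3 without either control array or knockdown replicate 1. On the brightest probe sets no change among these 9 genes reached 2-fold, but USP14 was at 1.24 on the mean of its probe sets. The number past the threshold was 2 without control replicate 1 and 3 without control replicate 2.

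Of the other intermediate filament genes, PRPH, which encodes the neuronal filament protein peripherin, rose by 0.78 (SE 0.11, limma adjusted p = 6.94e-04), and 2 of 7 fell. In all 42.9% of the list was past the threshold, against 50.8% of all genes. SYNC, whose product links desmin filaments in muscle, fell by 4.41, from 9.91 to 5.50, and VIM, the vimentin gene, fell by 1.16. The heavy neurofilament gene NEFH stood at 3.58 and 3.50 against 3.62 and 3.94 and did not pass. GFAP (0.30), DES and SYNM did not pass either.

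Other tubulin genes went both ways, 4 of 9 higher and 3 lower (77.8% past the threshold, against 50.8% of all genes). TUBB4B rose by 0.79 (SE 0.04, limma adjusted p = 7.53e-06), TUBA4A by 0.72 and TUBG1, the gamma tubulin of centrosomes, by 0.52. TUBB6 fell by 0.83, TUBA1A by 0.60 and TUBB by 0.25. Once probe sets ending in x or s were dropped, TUBB6 was at -0.02 and TUBB4B at 0.32, and neither passed. None of these changes reached the size of that of TUBB3.

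The neuronal microtubule regulators were the longest list, with 6 of 20 higher and 7 lower (65% past the threshold, against 50.8% of all genes). STMN3, a neuronal stathmin, rose 5.15-fold (2.36, SE 0.18, limma adjusted p = 3.81e-05), though only by 0.65 once probe sets ending in x or s were dropped. STMN1 rose by 0.42. The collapsin response mediator genes, which act on growth cones, split: DPYSL5 rose 5.41-fold, while DPYSL4, DPYSL2 and DPYSL3 fell 5.97-fold, 4.48-fold and 3.44-fold. On the mean of probe sets DPYSL5 was at 1.29 and DPYSL4 at -1.39. CRMP1, the first of that family, did not pass (-0.20). The microtubule-associated protein genes split as well: MAP1B fell by 0.91, MAP4 by 0.52, MAP1A by 0.38 and DCLK2, a doublecortin-like kinase, by 1.09. MAP1A did not pass without either control array. MAPT, the tau gene, rose by 0.60, MAP6 by 0.51 and KIF5C, a kinesin motor of axons, by 1.31. KIF5C turned to -0.36 once such probe sets were dropped, and MAP6 no longer passed when knockdown replicate 5 (0.32) or control replicate 1 (0.45) was removed. DCX, the doublecortin gene of migrating neurons, stood at 4.70 and 4.78 against 4.73 and 4.76.

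Of 14 RNA-binding protein genes, 5 rose and 2 fell (50% past the threshold, against 50.8% of all genes). MSI1, the Musashi protein of neural progenitors, was at 9.76 and 9.86 in the knockdown arrays and at 5.46 and 6.23 in the controls, 15.6-fold higher (limma adjusted p = 9.83e-06), or 2.06 on the log2 scale with the mean of its probe sets. MSI2 rose by 0.79, CELF5 by 0.66 and PTBP1, a repressor of neuronal exons, by 0.42. The ubiquitous Hu gene ELAVL1 rose by 0.28, but was at -0.0085 on the mean of its probe sets and not past the threshold without either control array, and the neuronal ELAVL3 (-0.26) did not pass. RBFOX2 fell by 1.16 and CELF3 by 0.35, and the call of CELF3 was lost without knockdown replicate 1 (-0.28) or either control array.

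Neuronal transcription factors and genes of the REST complex had 7 of 16 higher and 2 lower (56.2% past the threshold, against 50.8% of all genes). SOX11, a factor of immature neurons, rose 15.2-fold, from 4.57 to 8.50 (SE 0.14 on the log2 scale, limma adjusted p = 1.07e-06), POU4F1 6.70-fold, ISL1 4.89-fold and HAND2 2.86-fold. SOX11 was at 1.98 and HAND2 at 0.69 on the mean of their probe sets. POU3F2 fell by 1.15 and CTDSP1, a phosphatase of the REST complex, by 0.79. Among other genes of that complex, RCOR2 rose by 0.51 and SIN3A by 0.44, and RCOR1 (-0.17) did not pass. REST itself stood at 6.76 and 6.92 against 6.81 and 6.96 and did not pass, and the proneural genes NEUROG1 and NEUROG2 did not pass.

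Neuroendocrine and synaptic markers had 4 of 15 genes past the threshold (26.7%, against 50.8% of all genes), 1 higher and 3 lower. SCG2, the secretogranin gene, was at 3.82 and 4.04 in the knockdown arrays and at 9.50 and 9.63 in the controls, 49.6-fold lower (limma adjusted p = 2.18e-07). SYT1, the calcium sensor of synaptic vesicles, fell 5.87-fold and SYT4 by 0.37, the latter no longer past the threshold without either knockdown array or without control replicate 2. NCAM1 rose by 0.68 but was at 0.05 and not past it on the mean of its probe sets. CHGA, CHGB, SYP, ENO2, SNAP25 and GAP43 did not pass.

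**Figure D4:**
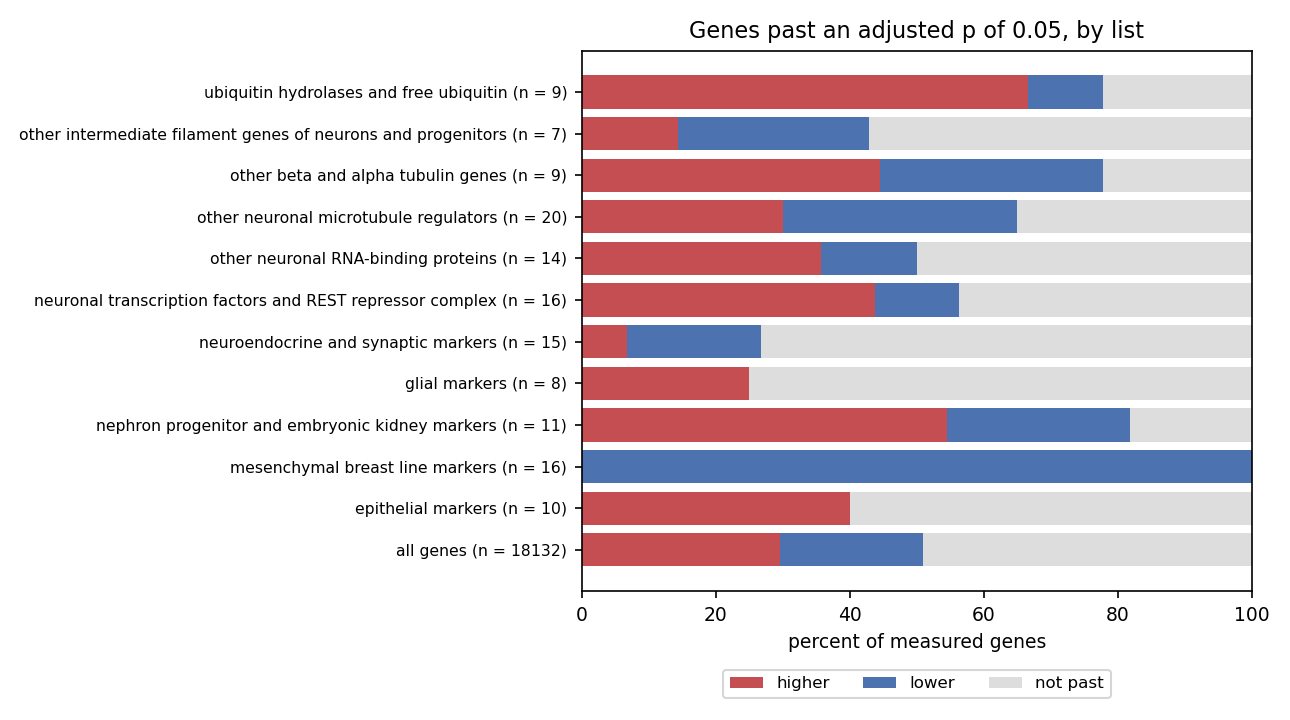
Share of the measured genes of each list that were past an adjusted p of 0.05 and higher (red) or lower (blue) in the ELK3 knockdown arrays, with all 18132 genes at the bottom. The neuronal lists have genes in both directions, while all 16 mesenchymal breast line markers are lower.

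Markers of other cells moved on the same arrays. Of 8 glial genes, 2 rose, MBP by 2.70 (0.52 on the mean of its probe sets) and OLIG2 by 0.94. This is 25% past the threshold, against 50.8% of all genes. The mean level of the glial list was 5.76 and 5.88 in the knockdown arrays and 5.37 and 5.32 in the controls. Of 11 genes of nephron progenitors and embryonic kidney, 6 rose and 3 fell (81.8% past the threshold, against 50.8% of all genes), with mean levels of 6.91 and 6.76 against 5.88 and 5.97. With no moderation 4 of the 11 were past it. The marker lists were chosen with earlier results known, and nothing is read from their counts. LIN28B rose 78.8-fold, LHX1 19.3-fold and CITED1 6.50-fold, while CDH6 fell 17.0-fold, SALL1 3.90-fold and PAX8 2.09-fold. The other rises were those of WT1 (3.52-fold), SIX2 (2.29-fold) and EYA1 (1.55-fold). SIX2 differed between the control arrays, at 6.88 and 7.86. On the mean of probe sets LIN28B was at 4.38, LHX1 at 1.90, SALL1 at -1.26 and PAX8 at -0.45. CITED1 was at 2.03 without knockdown replicate 1 and at 3.37 without knockdown replicate 5. With probe sets ending in x or s left out, LIN28B was at 2.46. Epithelial markers rose in 4 of 10 genes and fell in 0 (40% past the threshold, against 50.8% of all genes in either direction and 29.5% higher). KRT19 rose 62.0-fold, KRT8 50.8-fold, KRT18 4.59-fold and CLDN7 by 0.80. KRT8 and KRT18 were read from probe sets ending in x, and they had no value once those ending in x or s were dropped. CDH1 and EPCAM did not pass. The part of any of these in the levels of UCHL1, NEFL or NES was not tested. In RNA of whole cultures, fewer cells of a type and less RNA per cell cannot be told apart.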

How the data were processed

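RNA of 4 samples was measured on 1 array each. The deposited values are log2 signals that the authors normalized with RMA, per the submitters' processing notes; its version and steps: not given in the sources used here. Array medians lay between 6.76 and 6.80. Arrays have no read depth, and their number limits the precision.

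Of the probe sets, 44988 carried 1 gene symbol in the platform annotation, 1832 several and 2473 none; those with several or none were not named. Each gene was read from its probe set with the highest mean over the arrays. Knockdown and control arrays were compared in R 4.3.3 using limma 3.58.1 (lmFit, eBayes with an intensity trend, group as the only factor), two-sided, with Benjamini-Hochberg adjustment over all 18132 genes and a threshold of 0.05. The fit had 2 residual degrees of freedom and a prior of 4.83; an exact permutation test of 2 arrays against 2 cannot go below 0.333. A second fit covered all probe sets. Data of 18132 genes were also simulated, with 50 genes changed at each fold. The fit recovered 25.6%, 61.2%, 93.2% and 98.4% of genes changed by 1.5-fold, 2-fold, 4-fold and 8-fold. On the real arrays 50.8% of genes were past the threshold, so these rates cannot be carried over to this comparison.

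The members, the 11 lists and the naming rule were chosen with earlier results of these data known. The rule names all members, ELK3, the 4 largest changes of each list and any called against most of the list, and the 6 genes nearest to UCHL1. Other list genes were named after their values were seen, and their roles are background. Motifs were searched on both strands of RefSeq promoter windows, in the 250 bases before the start. A comparison of proteins was not made here. Alternatives were other moderation, probe set choices, filters, scalings and thresholds, and leaving out each array. Plots were made in Python 3.11.15 with matplotlib 3.10.9.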

Additional observations from a re-analysis of the deposited data

How the results depend on the processing

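The differences of UCHL1, NEFL, NES, TUBB3 and ELAVL2 kept their direction under all alternatives that read them. They stayed past the threshold in those that used all 4 arrays. The genes were chosen with this contrast known, so this was close to fixed in advance and is not read as support. UCHL1 and TUBB3 have no value with probe sets ending in x or s left out, which gave 3 members past the threshold instead of 5. Past the threshold were 5091 genes with no moderation, 3204 with a fold over 2 as well, and 5280 by the design text's selection (fold over 1.5, unadjusted p under 0.05), against 9219. Quantile normalization gave 4928 higher and 4438 lower. For the ubiquitin list the count of 7 became 4 without an intensity trend, 2 with no moderation, 4 with quantile normalization, 3 at an adjusted p under 0.01, 0 with a fold over 2, 1 by the design text's selection, and 2 to 7 with an array left out. With no moderation, a fold over 2 and the design text's selection in that order, microtubule regulators had 6, 7 and 7, and RNA-binding proteins 3, 2 and 4. With a fold over 2, tubulins had 0, glial markers 1 and neuroendocrine markers 2; tubulins had 3 by the design text's selection. With no moderation, neuroendocrine markers had 2 and kidney markers 4. With probe sets ending in x or s left out, tubulins had 2 and epithelial markers 2, and KIF5C turned to -0.36. Averaging probe sets put ELAVL1 at -0.0085. The cause was not tested. No paired analysis was possible because the labels do not link any knockdown array to a control array.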
